A study of Mus musculus with 11 samples.

Results

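The 6 genes described here code for subunits of voltage-gated sodium channels: the pore-forming alpha subunits Scn1a, Scn3a and Scn8a, and the accessory beta subunits Scn2b, Scn3b and Scn4b. They are 6 of the 52550 genes in the count table, and were matched from symbol to Ensembl identifier through GENCODE M21. The set was built around Scn4b, which varied more between libraries than most genes of the striatum, and the question put was whether the other subunits follow it. The set was thus chosen by the measured spread of Scn4b, which is given as a description with no test.

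Scn4b ran from 69.0 to 475 CPM (counts scaled to library size) over 11 libraries with a wide gap in between, and no other member had such a gap. Scn1a and Scn3a varied 3.22-fold and 3.32-fold and moved together from library to library. Scn8a, Scn2b and Scn3b stayed within 1.3-fold, 1.57-fold and 1.47-fold from their lowest to their highest library.

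Poly(A) RNA was sequenced from punches of the accumbens shell, a region of ventral striatum, with 1 library for each 8-week-old mouse of mixed CBA/C57BL6J/129svEmx background. The study asked how reduced signalling through the retinoic acid receptor Rarb acts together with a mutation that causes Huntington disease. The design text names the R6/1 transgene and Rarb alleles, but the labels used here identify the libraries only by animal, and which genotype each mouse had is unknown. The 11 libraries were therefore not divided into groups, and no genotypes were compared. Values are given by animal code, or as the lowest, median and highest of the 11, and p-values measure variation between these mice and libraries only. Library totals ran from 24840981 (m61) to 48825783 counts (m49), and 2.90% (m74) to 7.21% (m61) of counts were mitochondrial. All 12 listed markers of striatal projection neurons were counted in every library, summing to 3136 to 6906 CPM, and the 8 listed markers of cortical glutamatergic neurons were also present, at 863 to 2442 CPM in sum. In such bulk tissue, fewer cells of a type and less RNA per cell cannot be told apart. No sequencing batch is labelled, and within-batch values cannot be given.

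A voltage-gated sodium channel opens when the membrane is depolarised and carries the inward current that starts and propagates the action potential. One alpha subunit forms the pore, the voltage sensors and the inactivation gate. Beta subunits are single-pass membrane proteins with an immunoglobulin-like domain on the outside, and they adjust gating, surface delivery and cell adhesion. Scn2b and Scn4b proteins are linked to the alpha subunit by a disulfide bond, whereas the Scn3b protein associates without one. Scn4b protein contributes to resurgent sodium current, which flows as the membrane repolarises, and its transcript is abundant in striatal projection neurons.

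Scn2b and Scn4b are neighbours on chromosome 9, on the same strand and with 8324 bases between the end of the first and the start of the second, so their start regions are shown side by side. Scn1a is shown as an alpha subunit from the cluster on chromosome 2. The windows are from RefSeq (GRCm38.p6) and run from 250 bases before to 50 bases after the start annotated there. They are read 5′ to 3′ on the strand of the gene, with each CG dinucleotide in capitals. Gene limits and the distance above are from GENCODE M21, which starts Scn4b (45138395) and Scn2b (45117782) before the RefSeq start, inside these windows.
Scn4b, chr9:45138374-45138673, plus strand: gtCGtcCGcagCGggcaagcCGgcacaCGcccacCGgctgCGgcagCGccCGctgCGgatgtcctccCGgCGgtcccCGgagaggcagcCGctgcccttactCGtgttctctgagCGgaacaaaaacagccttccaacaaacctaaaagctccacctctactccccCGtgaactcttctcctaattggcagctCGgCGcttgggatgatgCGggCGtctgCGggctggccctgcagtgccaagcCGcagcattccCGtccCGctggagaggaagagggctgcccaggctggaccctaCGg
Scn2b, chr9:45117626-45117925, plus strand: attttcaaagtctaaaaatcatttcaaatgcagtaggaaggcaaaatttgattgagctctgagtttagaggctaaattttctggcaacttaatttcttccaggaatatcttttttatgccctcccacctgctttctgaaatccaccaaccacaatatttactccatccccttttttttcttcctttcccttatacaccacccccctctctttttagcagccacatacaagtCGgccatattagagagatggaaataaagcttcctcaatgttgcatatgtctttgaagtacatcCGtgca
Scn1a, chr2:66440788-66441087, minus strand: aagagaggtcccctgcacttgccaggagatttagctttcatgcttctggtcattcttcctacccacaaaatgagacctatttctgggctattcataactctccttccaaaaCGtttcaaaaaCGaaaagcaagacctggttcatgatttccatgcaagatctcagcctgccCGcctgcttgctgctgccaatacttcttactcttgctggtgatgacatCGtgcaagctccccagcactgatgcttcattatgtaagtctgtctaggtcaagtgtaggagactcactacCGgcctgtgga
The Scn4b window held 26 CG dinucleotides and was 66.3% G or C. The Scn2b window held 2 and was 38.3% G or C, and the Scn1a window held 5 and was 47.3% G or C. The median over all windows of the table was 7. The letters AGGTCA, a core sequence recognised by nuclear receptors, were searched on both strands together with GGGCGG and TATAAA, and no match overlapped another. AGGTCA was in the Scn1a window once, at base 265, and in neither the Scn4b nor the Scn2b window, and it occurred in 16.3% of the 32851 windows. GGGCGG occurred in 35.7% and TATAAA in 13.6% of all windows, and in none of these 3. A window was given for 4 of the 6 members, and Scn8a had a pair of windows, with 38 and 12 CG dinucleotides. The Scn8a window with 12 also held AGGTCA once, at base 80.

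Levels of different genes were compared per kilobase of annotated exon. Scn2b was the highest of the 6 members, with a median of 83.8 CPM per kb (69.8 to 109 over the libraries), and Scn3b followed with 34.5 CPM per kb (26.5 to 38.9). These ranges did not overlap. Scn8a had a median of 20.1 CPM per kb (17.9 to 23.3), the highest median of the alpha subunits reported here, though Scn2a was above it in m115, m47 and m57. Scn4b had a median of 19.2 CPM per kb, but its range of 13.8 to 95.4 covered the whole ranges of Scn8a and Scn3b and reached into that of Scn2b, so its place in the order depended on the library. Scn1a had 7.63 CPM per kb (3.69 to 11.9) and Scn3a 3.21 CPM per kb (1.79 to 5.96), with ranges that overlapped.

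**Figure D1:**
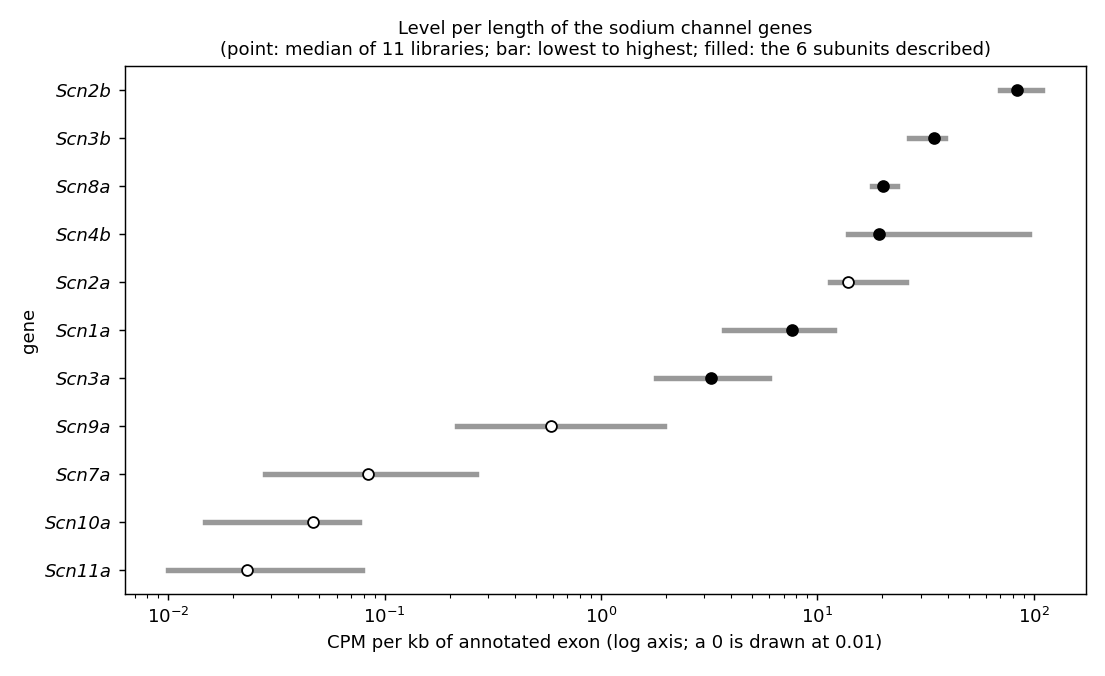
Level per kilobase of exon (CPM per kb, log axis) of the sodium channel genes reported here, with the median of 11 libraries as a point and the lowest to highest library as a bar; filled points are the 6 subunits described. Scn2b stands highest of these 6 and Scn3a lowest, and the bar of Scn4b, from 13.8 to 95.4 CPM per kb, is the longest of the 6; Scn4a, with a median of 0, is not drawn.

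Among other family genes, Scn2a, an alpha subunit of unmyelinated axons and excitatory neurons, had a median of 13.9 CPM per kb (11.4 to 25.6), between Scn8a and Scn1a. Scn9a, best known from sensory neurons, had 0.589 CPM per kb. Scn7a, Scn10a, Scn11a and Scn4a were too low for the filter, which required 1 CPM or more in 3 libraries together with a median of 10 counts or more and which all 6 members passed. Scn4a, the skeletal muscle alpha subunit, was at 0 in 10 of the 11 libraries and had 5 counts in m89.

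Scn4b (ENSMUSG00000046480, chromosome 9, 45138395 to 45154152, plus strand, mm10) had 69.0 CPM in m73, 69.1 in m74, 71.5 in m47, 78.7 in m115, 83.8 in m49 and 95.8 in m101. It had 326 CPM in m61, 339 in m57, 392 in m83, 468 in m89 and 475 in m44. No library lay between 95.8 and 326 CPM. The gap followed the numbered codes of the libraries: those with codes 1, 2, 3, 5, 6 and 7 had at most 95.8 CPM, and those with codes 9, 10, 12, 13 and 14 at least 326 CPM. The sources used here do not explain the codes, and whatever they follow cannot be told apart from differences between the mice. The spread of Scn4b, the biological coefficient of variation, was 0.799, at percentile 98.5 of 15373 genes that passed the filter, and it stayed between 0.781 and 0.826 with each library left out in turn. These are the values that chose the set.

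The neighbouring gene Scn2b (ENSMUSG00000070304, chromosome 9, 45117782 to 45130070, plus strand) did not show the gap. It was highest in m49, at 509 CPM, a library with 83.8 CPM of Scn4b. It lay between 390 and 439 CPM in m57, m44, m61, m89 and m83, at 373 CPM in m115, and between 325 and 339 CPM in m47, m74, m73 and m101. Apart from m49, the 5 libraries with the most Scn4b were thus also those with the most Scn2b, within a much narrower range. This is a description of the values, since the labels give no groups to test.

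**Figure D2:**
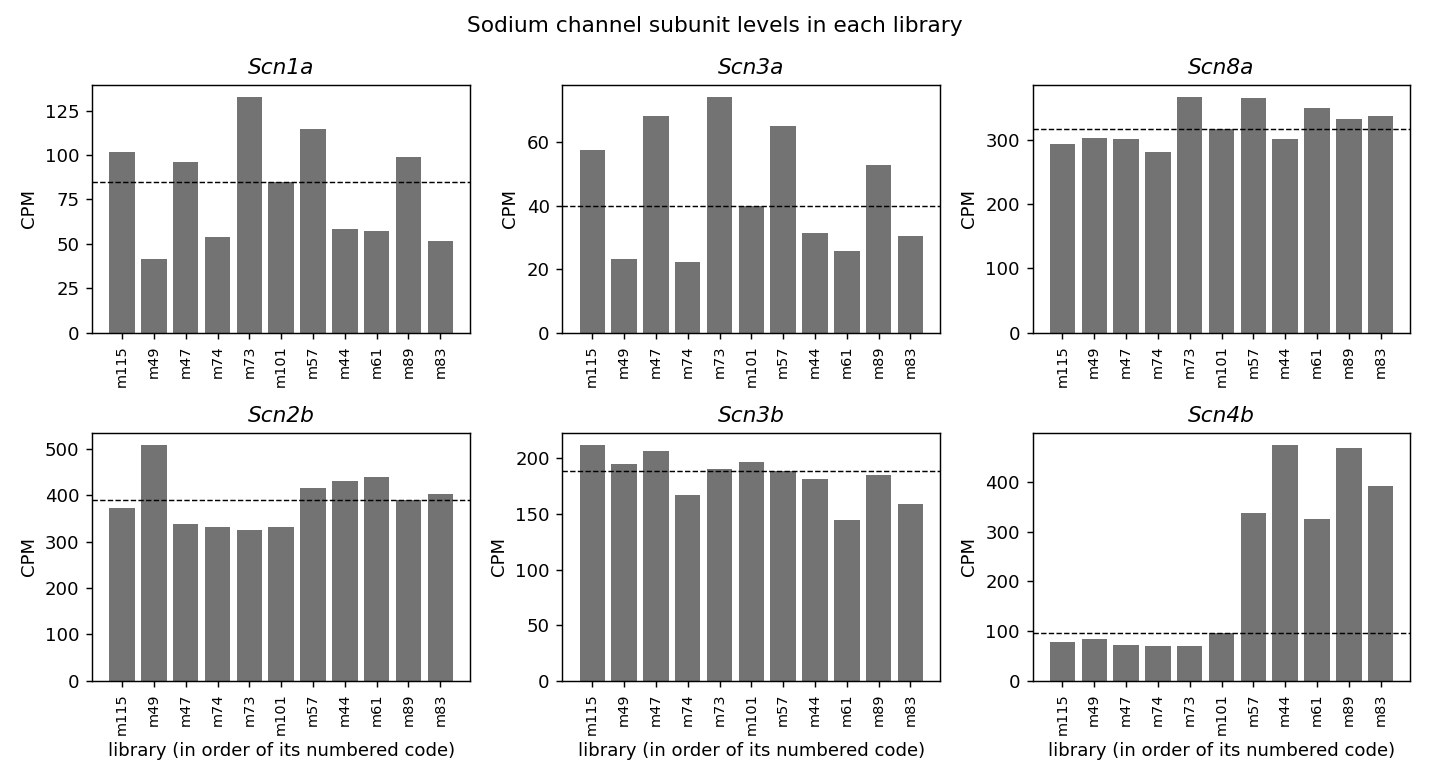
CPM of each of the 6 subunits in each library as bars from 0, with libraries in the order of their numbered codes and the median of 11 as a dashed line. Scn4b has 5 libraries from 326 to 475 CPM and 6 at or below 95.8 CPM, Scn1a and Scn3a share their high and low libraries, and Scn8a and Scn3b are nearly level.

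Scn3b (ENSMUSG00000049281, chromosome 9, 40269217 to 40291618, plus strand), a beta subunit that is not bound covalently to the pore, had 145 CPM in m61, 159 in m83, 167 in m74, 181 in m44, 185 in m89 and 188 in m57. It had 191 CPM in m73, 195 in m49, 196 in m101, 206 in m47 and 212 in m115. The values formed an unbroken series, in which m61, m83, m44, m89 and m57, all high in Scn4b, stood in the lower part together with m74. Scn3b had a spread of 0.112, at percentile 11.4, which became 0.0867 without m61.

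Scn8a (ENSMUSG00000023033, chromosome 15, 100869858 to 101045938, plus strand) codes for the main alpha subunit of axon initial segments and nodes of Ranvier in the adult brain. It had 282 CPM in its lowest library, m74, a median of 317 CPM, and 367 CPM in its highest library, m73. Its spread of 0.0905 was at percentile 4.85, against a median of 0.201 over all genes that passed the filter, so Scn8a was among the steadiest genes of these libraries. Its next highest values were 366 CPM in m57, 351 in m61, 338 in m83 and 332 in m89, whereas m44, the library with the most Scn4b, had 302 CPM.

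Scn1a (ENSMUSG00000064329, chromosome 2, 66270778 to 66440840, minus strand) codes for an alpha subunit that fast-spiking GABAergic interneurons depend on for firing. It had 133 CPM in m73, 114.7 in m57, 101.5 in m115, 99.0 in m89, 96.0 in m47 and 85.0 in m101. It had 58.3 CPM in m44, 57.01 in m61, 54.0 in m74, 51.7 in m83 and 41.2 in m49. Both sets of libraries included high and low values of Scn4b. The spread of Scn1a was 0.375, at percentile 85.3.

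Scn3a (ENSMUSG00000057182, chromosome 2, 65457118 to 65567627, minus strand) codes for an alpha subunit that is most abundant before birth and lower in adult rodent brain. It was highest in m73 (74.3 CPM), m47 (68.2 CPM), m57 (65.1 CPM), m115 (57.6 CPM) and m89 (52.7 CPM), and had 40.0 CPM in m101. It was lowest in m74 (22.4 CPM), m49 (23.3 CPM), m61 (25.6 CPM), m83 (30.3 CPM) and m44 (31.2 CPM). The 5 highest and the 5 lowest libraries were the same as for Scn1a, and m101 was the median of both. The spread of Scn3a was 0.442, at percentile 90.4.

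Whether members moved together was tested by the slope of each gene on the log2 CPM of another, fitted to the counts of 15372 genes with edgeR's quasi-likelihood test and called at a Benjamini-Hochberg adjusted p under 0.05 over all of them. A slope of 1 means that a doubling of one gene went with a doubling of the other. Pearson's r and Spearman's rho on log2 values, with permutation p-values adjusted over the same genes, stand beside it. Of the 10 pairs among Scn1a, Scn3a, Scn8a, Scn2b and Scn3b, 1 passed both tests with either gene as the first.

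Scn3a rose with Scn1a with a slope of 1.12 ± 0.12 (SE, 11 libraries; edgeR adjusted p = 6.57e-05). Pearson's r was 0.95 (permutation p = 3e-05, adjusted 0.0142) and Spearman's rho 0.90 (permutation p = 0.00037, adjusted 0.0273). Without m49 and m83, the libraries farthest from the median of Scn1a, r was 0.96. Many genes followed Scn1a: 16.9% of the genes tested were called with a slope in either direction and 12.7% with a positive one, and 13.1% by the permutation of r. With Scn3a in its place these shares were 27%, 15.8% and 23.7%. A call on either gene was therefore common among all genes tested.

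**Figure D3:**
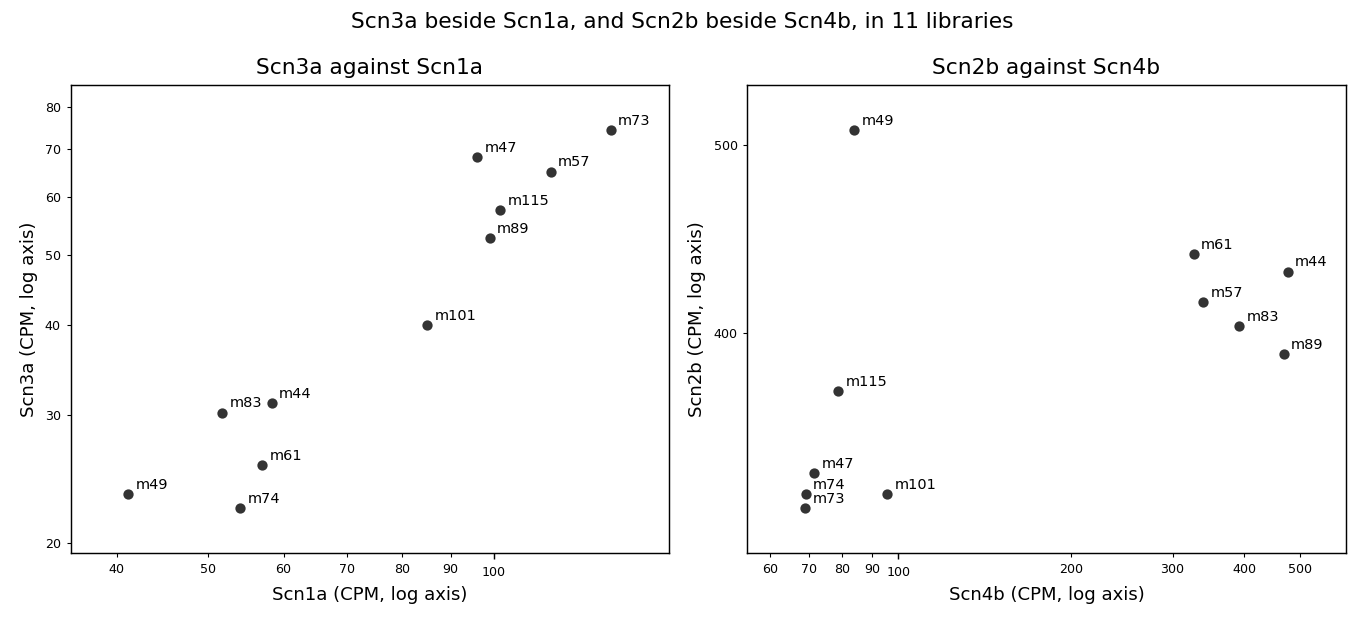
Scn3a against Scn1a (left) and Scn2b against Scn4b (right), in CPM on log axes, 1 point for each of the 11 libraries. Scn3a and Scn1a lie along a line from m49 and m74 to m73, whereas Scn4b leaves a gap between 95.8 and 326 CPM that Scn2b, highest in m49, does not share.

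Scn8a, Scn2b and Scn3b were not called on Scn1a. Scn8a had a slope on Scn1a of 0.10 ± 0.09 (SE; edgeR adjusted p = 0.453). Scn3b had a slope of 0.15 ± 0.09 (edgeR adjusted p = 0.274). Scn2b had a negative slope of -0.22 ± 0.10 (edgeR adjusted p = 0.15). The 3 slopes are small beside that of Scn3a, but a p above the threshold does not show that these genes are unrelated to Scn1a.

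The calls between Scn3a and Scn3b depended on the test. The slope of Scn3a on Scn3b was 2.62 ± 0.86 (SE; edgeR adjusted p = 0.0494), where 17.3% of all genes were called in either direction and 8.16% with a positive slope. With the difference between long and short genes in each library as a covariate this slope was -0.90 ± 0.99 (edgeR adjusted p = 0.744), so that the call was lost and the direction turned. The slope of Scn3b on Scn3a was 0.15 ± 0.08 (edgeR adjusted p = 0.146), and r between them was 0.63 (permutation p = 0.0398, adjusted 0.133 with Scn3b as the first gene, where 12.2% of all genes passed). Spearman's rho was 0.56 (permutation p = 0.0772, adjusted 0.258), and r was 0.55 without m61 and m83. The number of genes called with Scn3b fell to 127 of 15372 without m61, against 2659 with it.

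No gene was called with Scn8a or Scn2b by edgeR (0 and 0% of 15372). At an unadjusted p under 0.05 edgeR gave 613 genes for Scn8a and 1695 for Scn2b, and DESeq2 called 5 and 130. The slope of Scn2b on Scn8a was 0.11 ± 0.55 (SE; edgeR adjusted p = 0.994). The slope of Scn3b on Scn8a was -0.36 ± 0.46 (edgeR adjusted p = 0.994). The slope of Scn3b on Scn2b was -0.19 ± 0.28 (edgeR adjusted p = 0.845). Each of these genes ranged over less than 1 log2 unit, and the errors are wide.

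Because no library lay between 95.8 and 326 CPM of Scn4b, no slope or r over all 11 libraries is given for it. Over the 6 libraries from 69.0 to 95.8 CPM, the slopes on Scn4b were -0.83 ± 1.09 (SE) for Scn1a, -1.37 ± 1.31 for Scn3a and -0.08 ± 0.46 for Scn8a. They were 0.53 ± 0.62 for Scn2b and 0.21 ± 0.46 for Scn3b, and the edgeR adjusted p was 1.0 for all 5. Exact permutation p-values of r over these 6 libraries, from all 720 orders, were 0.668 for Scn1a (r = -0.23), 0.651 for Scn3a (r = -0.25) and 0.867 for Scn8a (r = -0.09). Those for Scn2b (r = 0.32) and Scn3b (r = 0.34) were 0.547 and 0.517. Spearman's rho lay between -0.49 for Scn1a and 0.49 for Scn3b (exact permutation p = 0.356 for both), and over the 4 libraries left without m101 and m49 r was 0.20 for Scn1a, 0.25 for Scn3a, -0.37 for Scn8a, 1.00 for Scn2b and 0.72 for Scn3b. No gene was called there (0% of 15372, with 284 at an unadjusted p under 0.05 by edgeR, and 6 called by DESeq2). No relation of another subunit to Scn4b passed the tests within so narrow a range of Scn4b, which does not show that there is none.

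Taking the transcripts of the beta subunits Scn2b, Scn3b and Scn4b together per length, Scn4b made up 44.4% in m89, 43.2% in m44, 40.5% in m83, 35.5% in m57 and 35.2% in m61. It made up 15.2% in m101, 12.0% in m74, 11.7% in m73 and m115, 11.5% in m47 and 10.4% in m49. Scn2b took between 39.6% (m89) and 67.5% (m49) of the sum, and Scn3b between 14.2% (m61) and 30.2% (m47). In m44 and m89 Scn4b had a larger share than Scn2b, and in the other 9 libraries Scn2b had the largest. The sum of the 3 genes was lowest in m74, followed by m73 with 119 CPM per kb, and highest in m44 with 221 CPM per kb.

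Among the alpha subunits per length (Scn1a, Scn2a, Scn3a, Scn8a and Scn9a), Scn8a made up 34.7% in m47 and 53.0% in m83. Scn2a made up 28.7% in m83 and 39.2% in m57, and its share was above that of Scn8a in m115, m47 and m57. Scn1a made up 9.8% in m49 and 18.8% in m73, and Scn3a 4.7% in m61 and 9.9% in m47. The summed level ran from 36.4 CPM per kb in m74 to 65.3 CPM per kb in m57, a wider range than that of Scn8a itself.

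The other alpha subunits next to Scn1a and Scn3a were also called on Scn1a. Scn2a (chromosome 2, 65620771 to 65767447, plus strand) had a slope on Scn1a of 0.61 ± 0.12 (SE; edgeR adjusted p = 0.00261), with 146 CPM in m74 and 326 CPM in m57 as its extremes. Scn9a (chromosome 2, 66480080 to 66634962, minus strand) had a slope of 1.72 ± 0.26 (edgeR adjusted p = 0.000437) and ran from 2.75 CPM in m61 to 25.1 CPM in m73. Scn9a shares 180 exon bases with Gm13629, on the opposite strand, and how the counting used the strand is not given, whereas no member shares exon bases with another annotated gene. Of the genes between Scn3a and Scn7a that are no sodium channel, named after their values were seen, Csrnp3 was called on Scn1a by edgeR (slope 0.52 ± 0.12, adjusted p = 0.0096) but missed the threshold by permutation (r = 0.79, p = 0.0071, adjusted 0.0519; rho = 0.76, p = 0.00915, adjusted 0.063; r = 0.73 without m49 and m83). Galnt3, Ttc21b and Gm13629 in the same stretch were not called (edgeR adjusted p = 0.141, 0.0688 and 0.723).

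Long and short transcripts varied against each other between libraries, and the members on chromosome 2 moved with that difference. It is given for each library as the median log2 deviation of the 1534 genes with the most exon bases (at least 9809) minus that of the 1534 with the fewest (at most 1663), without sodium channel genes. It ran from -0.63 in m61 to 0.43 in m57. Exon lengths of the members are 15766 bases for Scn8a, 12459 for Scn3a, 11146 for Scn1a, 5461 for Scn3b, 4982 for Scn4b and 4656 for Scn2b, so the 3 alpha subunits are long, and the beta subunits are not among the longest or the shortest genes.

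Scn3a had an r of 0.86 with this length measure (permutation p = 0.00182, adjusted 0.0115, among 31.4% of all genes with an adjusted p under 0.05) and a rho of 0.80 (permutation p = 0.00456, adjusted 0.0275). Without m57 and m61 r was 0.84. Scn1a had an r of 0.77 (permutation p = 0.00878, adjusted 0.0329) and a rho of 0.79 (permutation p = 0.00529, adjusted 0.0298), and r was 0.74 without those libraries. Scn3b, which is not long, had an r of 0.83 (permutation p = 0.00097, adjusted 0.00793) but a rho of 0.68 (permutation p = 0.0257, adjusted 0.0813), and r was 0.81 without those libraries. Scn8a, the longest of the 6, did not move with it (r = 0.07, permutation p = 0.842, adjusted 0.895; rho = -0.01, permutation p = 0.99, adjusted 0.996; r = 0.11 without those libraries).

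With the length measure as a covariate, the slope of Scn3a on Scn1a was 0.84 ± 0.15 (SE; edgeR adjusted p = 0.0475), while the genes called on Scn1a were 59, or 0.384% of those tested. Over all 20 alternatives tried for this pair the edgeR or DESeq2 adjusted p lay between 9.43e-17 and 0.0475, and the slope between 0.838 and 1.316. Scn2a and Scn9a were not called in that fit (edgeR adjusted p = 0.324 and 0.129). With the same covariate Scn9a was called on Scn2b (slope -2.98 ± 0.42, edgeR adjusted p = 0.0106, among 0.911% of all genes). Without it Scn9a was not called on Scn2b (-3.88 ± 1.04, edgeR adjusted p = 0.372). On Scn3b, Scn9a was called without the covariate (5.05 ± 1.34, edgeR adjusted p = 0.0245, among 8.16% of all genes with a positive slope) but not with it (1.21 ± 2.06, edgeR adjusted p = 0.843).

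**Figure D4:**
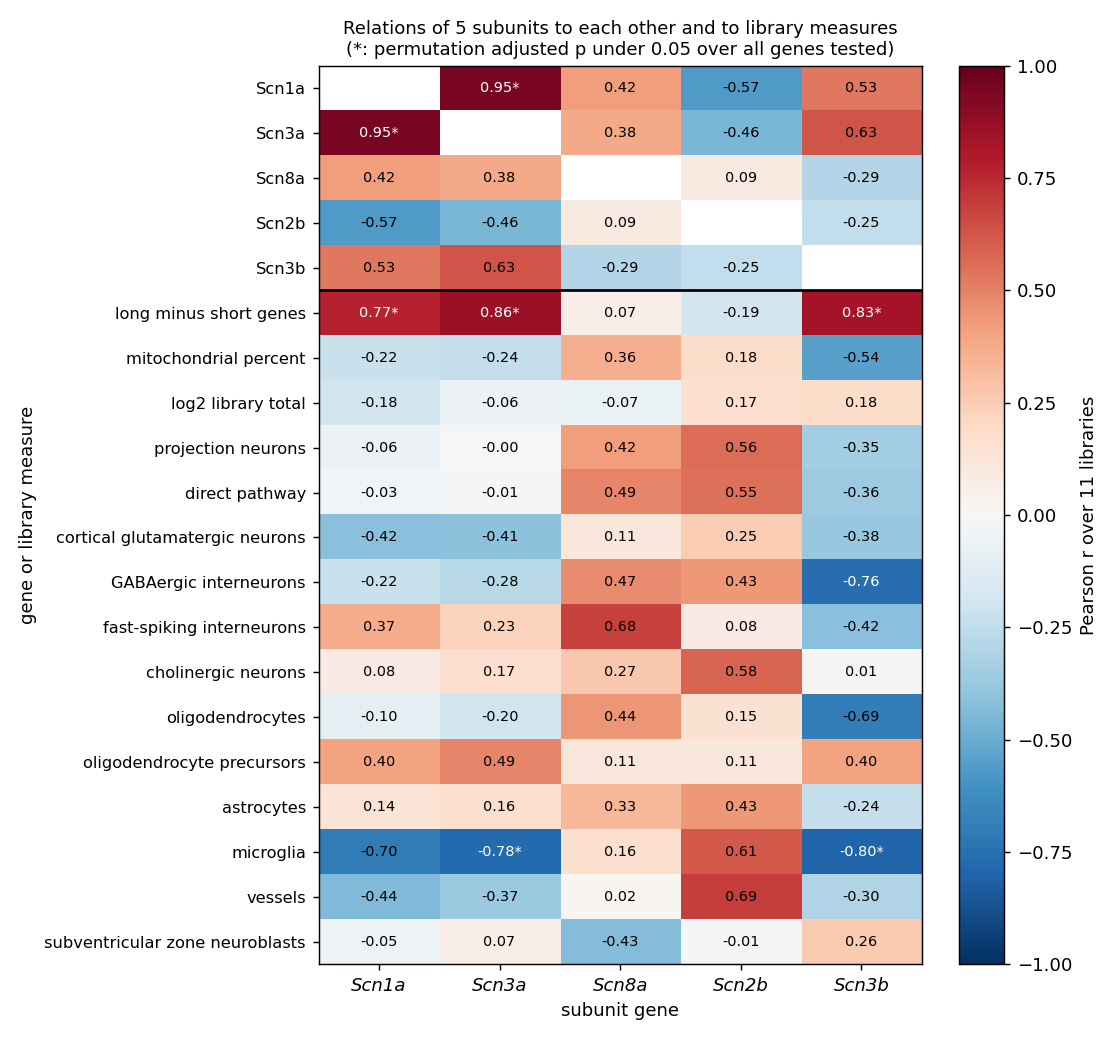
Pearson's r over 11 libraries of 5 subunit genes (columns) with each other and with 15 measures taken from each library (rows), coloured from -1 to 1, with a star where the permutation adjusted p over all genes tested was under 0.05. Scn1a and Scn3a stand out with 0.95, the length measure is starred for Scn1a, Scn3a and Scn3b, and no cell is starred for Scn8a or Scn2b.

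Markers of other cell types were set beside the members as scores, the mean log2 deviation of a list in each library. Scn3a had a negative r of -0.78 with the microglia score (permutation p = 0.00401, adjusted 0.0322, among 18.3% of all genes) and a rho of -0.90 (permutation p = 0.00029, adjusted 0.00983), with r at -0.78 without m47 and m61. Scn3b had an r of -0.80 (permutation p = 0.00299, adjusted 0.0283) and a rho of -0.69 (permutation p = 0.0225, adjusted 0.0879), with r at -0.53 without those libraries. Scn1a had an r of -0.70 (permutation p = 0.0165, adjusted 0.0705) and a rho of -0.78 (permutation p = 0.00629, adjusted 0.0425), with r at -0.81 without them. Of all genes, 0.325% passed with the mitochondrial percent, 0.221% with the score of oligodendrocyte precursors, 0.0456% with that of neuroblasts, and 0.0% with each of the other measures that had no starred cell. The 7 microglia markers were all counted in every library and summed to 186 CPM in m47 and 333 CPM in m61 as extremes, and their part in these results was not tested. Scn3a, Scn3b and Scn1a also moved with the length measure. The microglia score was highest in m61 (0.49), where the length measure was lowest (-0.63), and lowest in m47 (-0.41), where the length measure was 0.38. In m57, with the highest length measure (0.43), it was 0.06. Whether the relations to these measures are separate was not tested.

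Scn8a had its highest r with the score of fast-spiking interneurons, 0.68 (permutation p = 0.0232, adjusted 0.45), with a rho of 0.55 (permutation p = 0.0826, adjusted 0.928) and an r of 0.44 without m57 and m61, so it did not pass the adjustment (0.0% of all genes passed). Scn2b had its highest r with the score of vessel markers, 0.69 (permutation p = 0.0182, adjusted 0.416), with a rho of 0.77 (permutation p = 0.00726, adjusted 0.337) and an r of 0.84 without m101 and m89. Its smallest adjusted p was with the microglia score, with an r of 0.61 (permutation p = 0.0422, adjusted 0.123), a rho of 0.66 (permutation p = 0.0304, adjusted 0.105) and an r of 0.54 without m47 and m61. Scn1a, the member most closely tied to fast-spiking interneurons, had an r of 0.37 with their score (permutation p = 0.262, adjusted 0.752), a rho of 0.51 (permutation p = 0.114, adjusted 0.951) and an r of 0.61 without m57 and m61.

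Beside Scn4b, the score of projection neuron markers was 0.61 in m44, 0.52 in m57, 0.50 in m89, 0.43 in m83 and 0.31 in m61. In the other libraries it was -0.12 in m115, -0.17 in m49, -0.21 in m47, -0.30 in m101, -0.31 in m73 and -0.49 in m74. All libraries with at least 326 CPM of Scn4b had a positive score and all others a negative one. This split was not particular to that list. The direct pathway score was 0.28 (m61) to 0.47 (m44) in the same 5 libraries and -0.34 (m74) to -0.060 (m115) in the others, and the GABAergic interneuron score was 0.16 (m89) to 0.52 (m61) and -0.40 (m47) to 0.0066 (m74). The score of indirect pathway markers left a gap like that of Scn4b, and no r is given for it; it was lowest in m73 (-0.36) and highest in m44 (1.102). The part of these cell types in the Scn4b values was not tested.

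**Figure D5:**
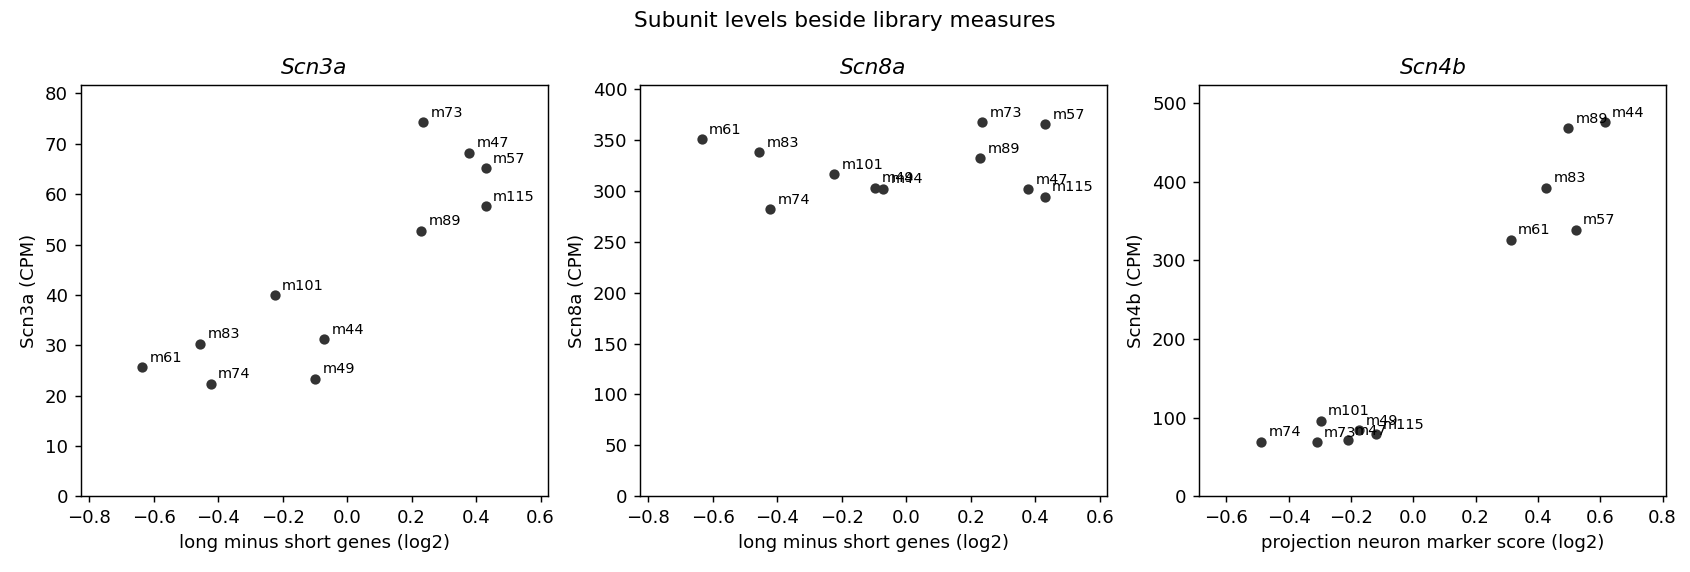
CPM of Scn3a and Scn8a against the length measure (long minus short genes, log2), and of Scn4b against the projection neuron marker score (log2), 1 point for each of the 11 libraries. Scn3a climbs to the right, Scn8a does not, and the 5 libraries with 326 to 475 CPM of Scn4b have scores from 0.31 to 0.61.

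Proteins that bind, anchor, modify or cleave sodium channels were covered by 28 listed genes, all past the filter. On Scn1a 6 of the 28 had a positive slope that passed the test and 2 a negative one (12.7% and 4.25% of all genes), with a median slope of 0.19 against -0.03 over all genes. Those that rose with Scn1a were Ptprz1, a receptor phosphatase that binds the channel (slope 0.77, edgeR adjusted p = 0.00281), Cntn1, a surface adhesion partner (0.60, 0.00591), Adam10, a protease that cleaves beta subunits (0.57, 0.00296), the scaffold Ank2 (0.53, 0.0101), Fgf14, which binds the channel tail (0.40, 0.0319), and Ank3, the ankyrin of the axon initial segment (0.33, 0.0323). Calm3, a calmodulin gene, and Prkaca, the catalytic subunit of protein kinase A, had negative slopes of -0.34 and -0.25 (edgeR adjusted p = 0.0464 and 0.0426). On Scn3a 8 were positive and 3 negative (15.8% and 11.2% of all genes), with Tnr and Nedd4 among the positive and Csnk2b among the negative beside those named. On Scn3b 2 were positive (Ank2 and Nedd4) and 4 negative (Calm2, Calm3, Camk2b and Csnk2b), against 8.16% and 9.13% of all genes, and on Scn8a and Scn2b none of the 28 were called. With the length measure as a covariate none of the 28 was called on any of the 5 members, in fits that called 0.384% of all genes on Scn1a, 0.768% on Scn3a, 0% on Scn8a, 0.911% on Scn2b and 0.00651% on Scn3b.

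The genes most like each member over the 11 libraries, by Pearson's r on log2 CPM, were named as a description. For Scn1a they were Cadps (r = 0.990), Unc80 (0.986), a subunit of the sodium leak channel complex, and Ints6 (0.981). For Scn3a they were Ltn1 (0.989), Carf (0.989) and Ppp1r12a (0.988). For Scn8a they were 5830408C22Rik (0.919), Matn2 (0.869) and Lrrtm4 (0.861). No gene reached as high an r with Scn8a as those named for Scn1a or Scn3a, but Scn8a also varied least of the members. For Scn2b they included Nfe2l1 (0.975) and Ctnna2 (0.960), both highest in m49 as Scn2b was. For Scn3b they were Orc3 (0.956), Grb10 (0.953) and Ppp6r3 (0.951), each lowest in m61.

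The genes ranked closest to Scn4b in the same way were Lrrc10b, Pde1b, Cd4, Gpr83, Ier5l and Gpr6, for which no r is given because of the gap. Pde1b, a phosphodiesterase abundant in striatum, had 306 CPM in m73 as its lowest value and 826 CPM in m44 as its highest. In the same 2 libraries Lrrc10b had its extremes of 22.2 and 98.9 CPM, and Cd4 those of 1.70 and 28.8 CPM. Gpr6, a receptor of indirect pathway neurons, likewise lay between 14.7 CPM (m73) and 53.0 CPM (m44). Of these 6 genes, 5 had their highest value in m44, as Scn4b did, but they were chosen for their likeness to Scn4b over these same libraries. The genes ranked as most opposed were Oxnad1 (14.2 to 23.3 CPM), Fkbp14 (7.38 to 17.4 CPM) and Rtp4 (0.944 to 3.76 CPM).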

How the data were processed

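The authors deposited raw counts of reads per gene for 11 libraries, without normalization. The submitters' processing notes name the mm10 build, HTSeq 0.6.1, Bowtie2 2.1.0, TopHat2 2.0.14 and bcl2fastq 2.17.1.14. Per the labels' protocols, punches from frozen sections of 300 µm gave 200 ng of total RNA for stranded poly(A) libraries with 12 PCR cycles. The series design names 12 samples, of which 1 failed quality control. How the counting used the strand, and with which annotation release, is not given in the sources used here. Symbols, coordinates and exon lengths came from GENCODE M21, which matched 52403 of 52550 identifiers.

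From the counts, CPM was computed with TMM-scaled library sizes (factors 0.908 to 1.06) in edgeR 4.0.16 under R 4.3.3. A count of 3 equals 0.0619 to 0.133 CPM. Tests covered genes reaching 1 CPM in 3 libraries with a median of 10 counts or more. Slopes were fitted by edgeR's quasi-likelihood test on log2(CPM + 0.5) of each member, with the member itself left out of the adjustment. Permutation tests were two-sided with 100000 permutations, for which 1e-05 is the smallest p, or all 720 orders for the 6 libraries. No slope or r is given over values with a gap above 0.5 of their range and at least 2 libraries on each side. The edgeR slope on Scn1a and the estimate of spread were checked on simulated data in which genes varied independently apart from set slopes. The permutation tests, the fits with a covariate and the fits on 6 libraries were not checked in this way. DESeq2 1.42.0 gave an alternative fit. Other steps used Python 3.11.15, scipy 1.17.1, pandas 2.3.3, numpy 2.4.6 and matplotlib 3.10.9.

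The members, marker lists, partner list and tests were chosen with earlier results of these data known. Named genes are the members, other genes of the sodium channel family, the partners, genes within 250 kb of Scn4b, the 3 genes most like each member, and for Scn4b the 6 most like and 3 most opposed. The genes between Scn3a and Scn7a, and the alternatives for pairs without Scn4b, were added after the data were seen. Some genes that this rule would name are not reported here.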

Additional observations from a re-analysis of the deposited data

How the results depend on the processing

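The labels give no groups. The lowest count of any member in a library was 578, for Scn3a. The relations rest on 11 libraries, or 6 for Scn4b, and Scn8a, Scn2b and Scn3b vary little over them. No paired analysis was possible because the labels give neither groups nor replicate numbers. The positive slope of Scn3a on Scn1a passed the test under all 20 alternatives, from 1.07 to 1.202 with each library left out. Scaling by DESeq2's size factors and pseudocounts of 0.1 and 2 CPM moved neither the counts of genes called (by over 1.5 times) nor the pairs recomputed under them, 1 direction of each pair, across threshold or direction. The other direction of each pair and single partner genes, among them calls near the threshold (Scn3a on Scn3b, Calm3 on Scn1a and Tnr on Scn3a), were not recomputed under them.

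With the length measure as a covariate, the genes called were 59 for Scn1a, 118 for Scn3a, 140 for Scn2b and 1 for Scn3b, and the slope of Scn3b became -0.074 on Scn1a and -0.085 on Scn3a (edgeR adjusted p = 0.801 and 0.799, against 0.0882 to 0.801 and 0.0542 to 0.799 over all alternatives). Without scaling the slope of Scn2b on Scn8a became -0.683, and with the projection neuron score as a covariate -0.320. DESeq2 called 5 genes for Scn8a, 130 for Scn2b and 6 for Scn4b, and without the filter edgeR called 1 for Scn4b. Without the 2 libraries farthest from the median, 1 gene was called for Scn3b, and over the remaining 4 libraries the slopes on Scn4b became 0.533 for Scn1a and 1.036 for Scn3a. The cause was not tested.

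With each library left out in turn, the genes called ran from 1755 to 3372 for Scn1a, 2852 to 4346 for Scn3a, 127 (without m61) to 3533 (without m49) for Scn3b, 0 to 55 (without m49) for Scn2b, 0 to 1 for Scn8a and 0 to 1 for Scn4b. Slopes on Scn4b ran from -2.876 (without m101) to 0.102 (without m73) for Scn1a, -2.801 (without m101) to -0.575 (without m73) for Scn3a, -0.396 to 0.275 for Scn8a, 0.056 (without m49) to 2.032 (without m101) for Scn2b and -0.031 (without m74) to 0.512 (without m101) for Scn3b. The slope of Scn2b on Scn8a ran from -0.207 to 0.524.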

Other observations

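On the log2 scale the Scn4b values fell into separate clusters, with a largest gap of 0.635 of their range. The 6 libraries below it were m73 (69.0 CPM), m74 (69.1 CPM), m47 (71.5 CPM), m115 (78.7 CPM), m49 (83.8 CPM) and m101 (95.8 CPM). The 5 above it were m61 (326 CPM), m57 (339 CPM), m83 (392 CPM), m89 (468 CPM) and m44 (475 CPM). None of the other 5 members had such a gap, the largest being 0.328 of the range, for Scn2b, with m49 alone above it.

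The same rule was applied to the other genes only where their range on the log2 scale was at least a doubling. Genes that varied less were left out, whether or not they split as Scn4b did. Of the 15373 genes that passed the filter, 57 fell into separate clusters in this way. Of all 15373, 5 (0.0325%) split the libraries exactly as Scn4b did, Scn4b included. The others were Adora2a, the adenosine receptor of indirect pathway neurons (52.4 to 209 CPM), Pdyn, a neuropeptide precursor of direct pathway neurons (123 to 311 CPM), Gpr6 (14.7 to 53.0 CPM) and Ier5l (7.44 to 30.7 CPM), all of them higher in the libraries where Scn4b was higher. Adora2a, Pdyn and Gpr6 are also members of the marker lists.

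Of 28 other counted genes within 250 kb of Scn4b, 7 passed the filter, among them Scn2b, which is described above. Fxyd6, a regulator of the sodium pump, had 128 CPM (m115) to 215 CPM (m74). Ube4a ran from 53.9 CPM in m61 to 76.1 CPM in m115, and Atp5l had 32.4 CPM (m115) to 70.4 CPM (m61). BC049352 was low, from 0.186 CPM in m49 to 2.02 CPM in m89. Mpzl3 had 3.87 CPM (m74) to 7.86 CPM (m101), and Il10ra 3.55 CPM (m61) to 8.43 CPM (m49). None of these genes was highest in m44, where Scn4b was highest. Atp5l and BC049352 were highest in a library above the gap of Scn4b and lowest in one below it. Ube4a and Il10ra had this reversed, and both extremes of Fxyd6 and of Mpzl3 were in libraries below the gap.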
